A study of Saccharomyces cerevisiae with 21 samples.

Results

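The zinc-responsive genes of the Zap1 regulon were examined in biofilms of the budding yeast Saccharomyces cerevisiae. They comprised 10 genes chosen by name, ZAP1, ZRT1, ZRT2, ZRT3, ADH4, ZPS1, VEL1, IZH1, IZH2 and IZH4, of the 7126 features counted, and all 10 passed the filter on low counts. Zap1 is the transcription factor that senses zinc inside the cell and, when zinc is scarce, activates genes for its uptake, its release from stores and its sparing. It binds zinc-responsive elements in promoters, among them its own, and its best known target is ZRT1. The members were named with results of these libraries in view, in which ZPS1 and ZRT1 stood out in dig1 against the wild type and ZPS1 in dig1 against ste12. Values among dig1, ste12 and the wild type are therefore given as a description with no p-value, any count of them past the threshold is printed with nothing read from it, and tests are given for the other strains.

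The libraries came from 6 mutants and the wild type (WT), with 3 libraries each. The dig1 mutant is labelled hyperfilamentous, and the ste12, spt8, rim101-531, ras2 and rtg3 mutants hypofilamentous. Dig1 represses the filamentation factor Ste12, Spt8 belongs to the SAGA coactivator, Rim101 represses genes in the response to alkaline pH, Ras2 acts above protein kinase A, and Rtg3 carries signals of mitochondrial state to the nucleus. All strains were of the Sigma1278B background, were grown for 16 h at 30 °C in liquid YEPD, and were harvested 24 h after spotting on 2% YEPGal agar, a rich galactose medium. The labels give the mutated gene but, apart from rim101-531, no allele, and the sources used here do not state mating type, ploidy or the zinc content of the medium.

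Counts on features ranged from 2388813 to 3987529 per library. The counts of DIG1, SPT8, RAS2 and RTG3 over the libraries of their own mutants were 1, 0, 0 and 0, against 549, 195, 954 and 319 over the WT libraries. STE12 kept 187 counts in ste12 against 534 in WT, and RIM101 kept 1354 in rim101-531 against 1647 in WT, so counts per gene check the ste12 label in part and the rim101-531 label not at all. No replicate pair agreed within counting error. The chi-square over its degrees of freedom reached 56.9 between dig1 replicates 1 and 2 and was lowest, at 1.93, between rtg3 replicates 1 and 3. Among the members dig1 replicate 2 was the lowest dig1 library for ZAP1, ZRT1, ZRT3, ADH4, ZPS1, VEL1 and IZH4. Their dig1 values, with those of MNT2 and YOR387C, are therefore also given without it, which raises them. No label states that replicates were separate cultures, so the p-values rest on a spread between libraries that may be technical.

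The promoters of the 10 genes are given as a description, since Zap1 genes are known in part from the elements before them. The zinc-responsive element, ACCTT and AAGGT with any 1 base between them, which is its own reverse complement and so reads alike on both strands, was searched for in the 500 bases before each coding start in the RefSeq R64 sequence, which comes from the S288C strain and not from Sigma1278B. An exact match stood before 9 of 6000 protein-coding genes (0.15%), and of the 10 zinc genes it stood before ZRT1. A match with at most 1 mismatch stood before 118 of 6000 (1.97%) and before 6 of the 10 zinc genes. The sites of those 6 genes are shown because they are the letters that the family shares. Capitals mark the 11-base match, positions are counted from 1 at its 5′ end, and each sequence reads 5′ to 3′ on the strand of its gene.
ZAP1 site (chrX:333187-333237, minus strand, R64): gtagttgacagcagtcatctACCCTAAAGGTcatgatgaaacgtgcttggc
ZRT1 far site (chrVII:20639-20689, plus strand, R64): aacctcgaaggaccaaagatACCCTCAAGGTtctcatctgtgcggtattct
ZRT1 near site (chrVII:20754-20804, plus strand, R64): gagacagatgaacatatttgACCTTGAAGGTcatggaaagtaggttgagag
ZRT2 far site (chrXII:404343-404393, minus strand, R64): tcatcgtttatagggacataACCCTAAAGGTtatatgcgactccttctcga
ZRT2 near site (chrXII:404294-404344, minus strand, R64): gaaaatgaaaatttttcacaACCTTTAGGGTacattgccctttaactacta
ZRT3 site (chrXI:118618-118668, plus strand, R64): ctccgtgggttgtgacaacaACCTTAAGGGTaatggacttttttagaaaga
ZPS1 sites (chrXV:34309-34374, plus strand, R64): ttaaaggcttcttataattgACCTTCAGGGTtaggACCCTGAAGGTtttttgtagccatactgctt
IZH1 site (chrIV:1434487-1434537, plus strand, R64): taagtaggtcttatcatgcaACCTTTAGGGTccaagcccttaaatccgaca

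The near site of ZRT1 is the exact match, and its last base lies 194 bases before the coding start. The other 8 sites of these genes all carry the substitution T4C or A8G, which are the same change read from opposite strands. The element with that change was looked for in a further search chosen after these sites were seen, and it stood before 9 of 6000 genes (0.15%), 6 of them zinc genes. Those 6 were certain to be found, as the change was taken from their own sites. Of the other 3, PKH1 and LOG1 lie beside IZH1 and ZAP1, and their windows hold the same sites as those genes. YPL264C is neighbour to no zinc gene listed here. ZPS1 has a pair of sites facing each other with 4 bases between them. No match with at most 1 mismatch was found in the windows of ADH4, VEL1, IZH2 and IZH4, which says only that these letters are not in those 500 bases.

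ZRT1 (YGL255W, chromosome VII, 20978 to 22108), the high-affinity zinc transporter of the plasma membrane, covered the widest range of the transporters. Values per library are CPM, counts scaled by TMM library size, and fold changes come from the fitted model as log2 estimates ± standard error. ZRT1 stood at 3057, 1465 and 2507 CPM in dig1, at 381, 712 and 552 CPM in ste12, and at 91.9, 433 and 268 CPM in rim101-531. It stood at 93.1, 61.8 and 74.7 CPM in spt8, at 32.2, 44.9 and 45.7 CPM in ras2, at 39.5, 35.7 and 33.0 CPM in rtg3, and at 139, 422 and 227 CPM in WT. The dig1 libraries lay above all others, which held for ZRT1, ADH4 and ZPS1 of the 10 and for 4.06% of all tested genes, and the ras2 and rtg3 libraries below all others, while the WT libraries themselves spanned a wide range. Because each library is a whole biofilm, a smaller share of cells that use a gene and less RNA per cell cannot be told apart.

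ZRT1 fell in ras2, rtg3 and spt8. The fall was 6.39-fold in ras2 (log2 fold change -2.68 ± 0.46, edgeR adjusted p = 0.000263), 7.28-fold in rtg3 (-2.86 ± 0.46, adjusted p = 0.000184) and 3.42-fold in spt8 (-1.78 ± 0.44, adjusted p = 0.00524), and the 3 mutant libraries lay below the 3 WT libraries each time. In rim101-531 ZRT1 averaged 264 ± 171 CPM, against 263 ± 145 CPM in WT (SD, n = 3 each), and did not pass (log2 fold change 0.01 ± 0.42, adjusted p = 0.994). In dig1 it was 8.92-fold higher than in WT, with a log2 fold change of 3.16 ± 0.45, or 3.44 without dig1 replicate 2. In ste12 it was also higher than in WT on average (549 ± 166 against 263 ± 145 CPM, log2 fold change 1.06 ± 0.42), but these libraries overlapped.

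**Figure D1:**
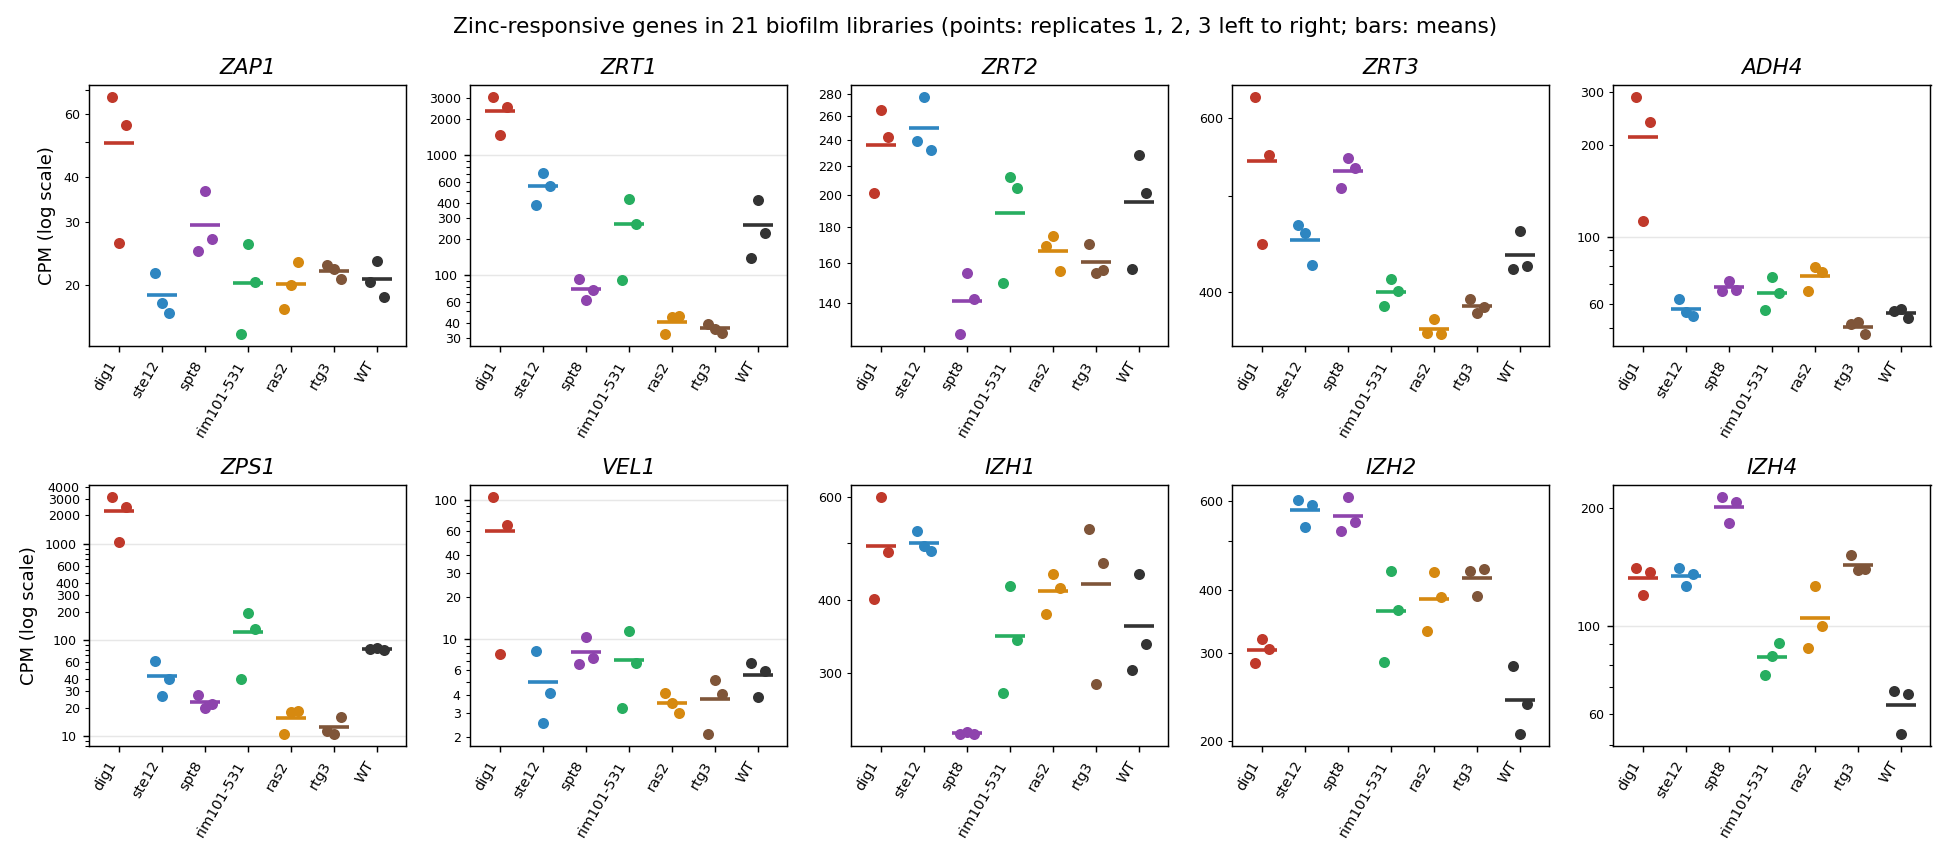
CPM on log axes of the 10 zinc-responsive genes, a panel for each, in dig1, ste12, spt8, rim101-531, ras2, rtg3 and WT; points are the 3 replicate libraries and bars their means, and the axes differ between panels. ZRT1, ZPS1 and ADH4 are highest in the 3 dig1 libraries, and IZH2 and IZH4 are lowest in the 3 WT libraries.

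ZPS1 (YOL154W, chromosome XV, 34658 to 35407), which encodes a surface protein made in low zinc, had the largest fold change of the 10 in dig1. It stood at 3149.8, 1063 and 2424 CPM in dig1, at 61.6, 26.3 and 39.9 CPM in ste12, and at 40.1, 195 and 131 CPM in rim101-531. It stood at 27.1, 19.6 and 22.0 CPM in spt8, at 10.6, 17.95 and 18.3 CPM in ras2, at 11.3, 10.6 and 16.0 CPM in rtg3, and at 82.3, 84.2 and 79.9 CPM in WT. The WT libraries lay close together for ZPS1, unlike for ZRT1, and only the rim101-531 libraries overlapped them. The fall was 5.21-fold in ras2 (log2 fold change -2.38 ± 0.47, edgeR adjusted p = 0.000954), 6.41-fold in rtg3 (-2.68 ± 0.48, adjusted p = 0.000484) and 3.57-fold in spt8 (-1.83 ± 0.46, adjusted p = 0.00561). The 3 strains ranked alike for both genes, with spt8 above ras2 and rtg3. The ras2 and rtg3 libraries overlapped each other for both ZRT1 and ZPS1.

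In dig1 ZPS1 was 26.9-fold higher than in WT (log2 fold change 4.75 ± 0.46, or 5.11 without dig1 replicate 2). Against ste12 the log2 fold change of ZPS1 was 5.70 ± 0.49 and that of ZRT1 2.09 ± 0.43, or 6.05 and 2.35 without dig1 replicate 2. ZPS1 and ZRT1 parted in ste12, where the ZPS1 libraries all lay below WT (42.6 ± 17.8 against 82.1 ± 2.14 CPM, log2 fold change -0.95 ± 0.44) and those of ZRT1 were on average above it. Within ste12 the library with the most ZRT1, replicate 2, had the least ZPS1. In rim101-531 both genes were lowest in replicate 1 and highest in replicate 2.

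**Figure D2:**
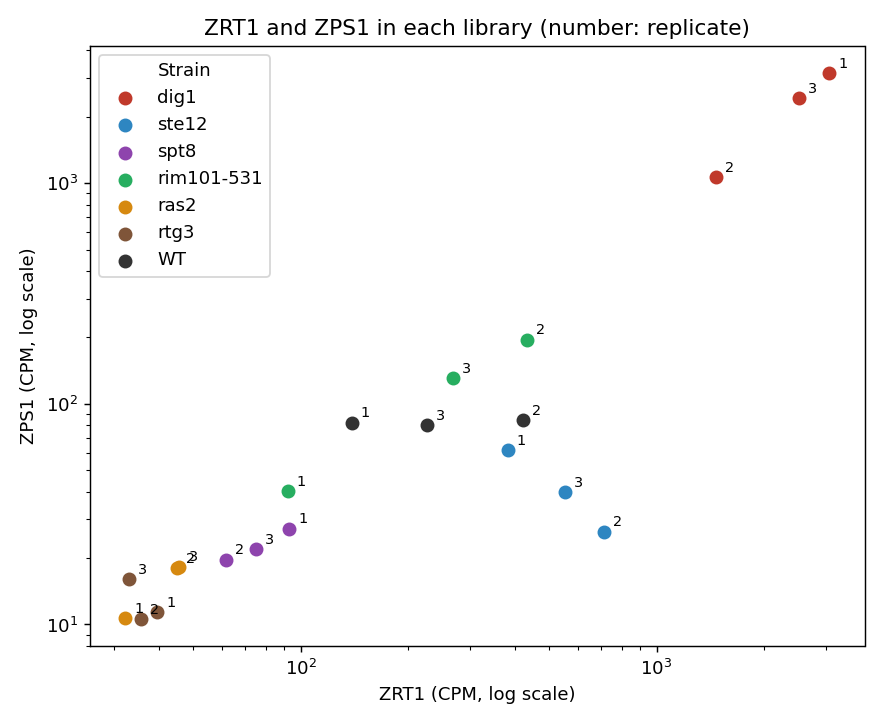
CPM of ZRT1 (horizontal log axis) and ZPS1 (vertical log axis) in each of the 21 libraries, coloured by strain and numbered by replicate. The libraries run from ras2 and rtg3 at the lower left to dig1 at the upper right, and the 3 ste12 libraries, at 381 to 712 CPM of ZRT1, carry less ZPS1 than the WT libraries.

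The strains that entered no comparison used to choose the genes were compared among themselves. A test of any difference among spt8, rim101-531, ras2 and rtg3 passed for 6 of the 10 genes, beside 49.7% of all tested genes, so the count is near the background. It passed for IZH4 (edgeR adjusted p = 7.39e-07), ZPS1 (9.81e-06), ZRT1 (4.00e-05), ZRT3 (0.000810), IZH2 (0.00399) and IZH1 (0.00595). By pair, 1 of the 10 passed in rtg3 against ras2 (30.7% of all tested genes), 4 in rtg3 against spt8 (30.1%), 3 in rtg3 against rim101-531 (23.2%), 4 in ras2 against spt8 (30.9%), 2 in ras2 against rim101-531 (13.1%) and 6 in spt8 against rim101-531 (21.7%). ZRT1 and ZPS1 each passed in 3 of the 6 pairs of these strains, those with rim101-531, where both were higher than in the other 3. For rtg3 against rim101-531 the log2 fold change was -2.88 ± 0.46 for ZRT1 (edgeR adjusted p = 0.000169) and -3.26 ± 0.48 for ZPS1 (adjusted p = 6.19e-05), with no overlap of the libraries. The call of ZRT1 in spt8 against rim101-531 (-1.79 ± 0.44, adjusted p = 0.00664) came with overlapping libraries. For ras2 against rim101-531 it was -2.69 ± 0.46 for ZRT1 (adjusted p = 0.000355) and -2.96 ± 0.47 for ZPS1 (adjusted p = 0.000169).

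ZAP1 (YJL056C, chromosome X, 330431 to 333073), the regulator itself, differed little from WT outside dig1 and spt8. It stood at 66.9, 26.3 and 56.0 CPM in dig1 and at 20.3, 23.4 and 18.5 CPM in WT. The dig1 libraries lay above WT, replicate 2 only just (log2 fold change 1.26 ± 0.26, or 1.59 without that replicate). Mean levels in the other 5 mutants ran from 18.7 ± 2.57 CPM in ste12 to 29.4 ± 6.16 CPM in spt8, against 20.7 ± 2.48 CPM in WT (SD, n = 3 each). ZAP1 did not pass in spt8 (log2 fold change 0.50 ± 0.27, edgeR adjusted p = 0.192), rim101-531, ras2 or rtg3. The spt8 libraries, at 24.9, 36.4 and 26.9 CPM, nevertheless all lay above the WT libraries. In ras2 and rtg3 the fitted log2 fold changes of ZAP1 were -0.04 ± 0.27 and 0.07 ± 0.27, beside the falls of ZRT1 and ZPS1.

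The other transporters moved far less than ZRT1. ZRT2 (YLR130C, chromosome XII, 402794 to 404062) encodes the low-affinity plasma membrane transporter and ZRT3 (YKL175W, chromosome XI, 118793 to 120304) the exporter of zinc from the vacuole. ZRT2 means lay between 141 ± 14.1 CPM in spt8 and 249 ± 24.1 CPM in ste12, against 196 ± 36.2 CPM in WT (SD, n = 3 each). In spt8 ZRT2 stood at 126, 154 and 142 CPM, against 157, 228 and 202 CPM in WT, and fell (log2 fold change -0.48 ± 0.15, edgeR adjusted p = 0.0224). ZRT3 stood at 509, 546 and 533 CPM in spt8, against 422, 461 and 425 CPM in WT, and rose slightly (log2 fold change 0.28 ± 0.10, adjusted p = 0.0455). ZRT2 and ZRT3 thus moved in opposite directions in spt8, and both calls depended on single libraries. The ZRT3 call was lost when any 1 of the 6 libraries was left out, and the ZRT2 call without spt8 replicate 1 or 3 or WT replicate 2 or 3. ZRT3 stood at 629.9, 447 and 551 CPM in dig1, where replicate 2 lay within the WT range and replicates 1 and 3 above it. Its log2 fold change there was 0.32 ± 0.10, or 0.47 without dig1 replicate 2.

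**Figure D3:**
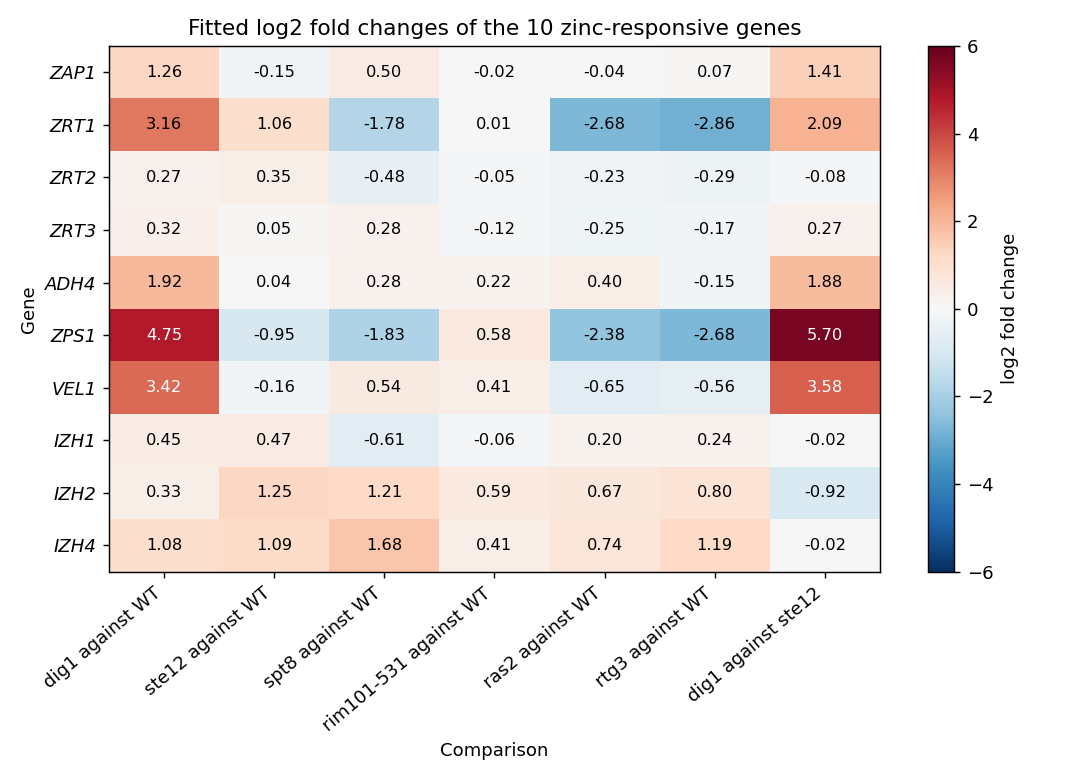
Fitted log2 fold changes of the 10 zinc-responsive genes (rows) in 7 comparisons (columns), the strain named first over the strain named after it; red is higher and blue lower in the strain named first. ZRT1 and ZPS1 are negative in spt8, ras2 and rtg3 against WT and positive in dig1 against WT, and IZH4 is positive in all 6 comparisons against WT.

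ADH4, VEL1 and ZRT1 lie close together near the left end of chromosome VII. ADH4 (YGL256W, 15159 to 16307) encodes an alcohol dehydrogenase made in low zinc and VEL1 (YGL258W, 11110 to 11730) a protein of unknown function strongly induced in low zinc. ADH4 stood at 289, 112 and 238 CPM in dig1 and at 56.8, 57.5 and 54.1 CPM in WT, a log2 fold change of 1.92 ± 0.22 (2.26 without dig1 replicate 2). In no other strain did ADH4 average above 74.0 ± 6.89 CPM, the level in ras2, and it passed in none of spt8, rim101-531, ras2 and rtg3. VEL1 stood at 105, 7.84 and 65.3 CPM in dig1 and at 6.77, 3.90 and 5.93 CPM in WT. Replicates 1 and 3 of dig1 carried nearly all of that difference, as replicate 2 lay barely above WT. Replicate 2 of dig1 also lay below ste12 replicate 1 (8.27 CPM), spt8 replicate 2 (10.4 CPM) and rim101-531 replicate 2 (11.5 CPM). The log2 fold change of VEL1 in dig1 was 3.42 ± 0.61, or 3.97 without dig1 replicate 2. It was 2.73, or 6.63-fold in place of 10.7-fold, without dig1 replicate 1. Outside dig1 VEL1 had at most 34 counts in a library.

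MNT2 (YGL257C), a mannosyltransferase gene between VEL1 and ADH4 that is also listed as a Zap1 target, differed far less between dig1 and WT. It stood at 84.7 ± 19.5 CPM in dig1 and 69.5 ± 6.55 CPM in WT (SD, n = 3 each). Its log2 fold change was 0.28 ± 0.14, or 0.46 ± 0.14 without dig1 replicate 2, its lowest dig1 library. The next genes on the far side of ZRT1 lay at or below WT levels in dig1, with log2 fold changes of -0.14 ± 0.16 for FZF1 and -0.53 ± 0.15 for HXK2. On the other side YPS5, beyond VEL1, had a log2 fold change of 0.26 ± 0.52 at a low level of 3.18 ± 0.721 CPM in dig1.

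**Figure D4:**
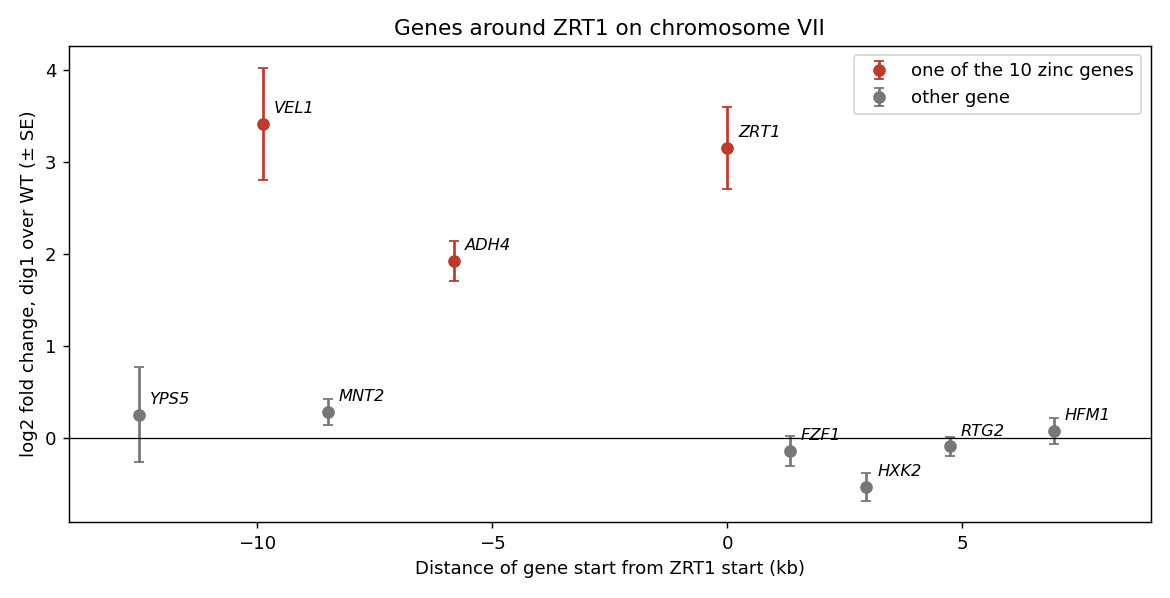
Log2 fold change of dig1 over WT (points, with standard errors) for the tested genes around ZRT1 on chromosome VII, against the distance of each gene's lower coordinate from that of ZRT1 in kb. VEL1, ADH4 and ZRT1 stand between 1.92 and 3.42, and MNT2, which lies between VEL1 and ADH4, at 0.28.

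VEL1 has a close relative, YOR387C (chromosome XV, 1069621 to 1070241), and their coding sequences in R64 were identical at 574 of 621 positions (92.4%), with a longest identical run of 62 bases. The files list alignments to more than 1 place in a record apart from the genes, so reads placed at both genes were counted for neither. How many reads of this pair that removed is not known from the counts, and reads that differ between the S288C reference and Sigma1278B could be placed at the wrong copy, so the counts of the pair are uncertain. YOR387C stood at 893, 18.1 and 563 CPM in dig1 and at 4.52, 3.57 and 5.23 CPM in WT. As with VEL1, dig1 replicate 2 lay far below the other dig1 libraries, here still above WT. Its log2 fold change was 6.78 ± 0.91, or 7.38 without that replicate. Alignments to more than 1 place made up 27.3% to 28.6% of alignment records in dig1 libraries and 20.8% to 21.6% in WT libraries, and their part in these values was not tested.

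IZH1, IZH2 and IZH4 encode membrane proteins related to the receptors of adiponectin and progestin and are known for roles in zinc homeostasis. IZH2 (YOL002C, chromosome XV, 323411 to 324364) and IZH4 (YOL101C, chromosome XV, 126982 to 127920) shared a pattern that set them apart from ZRT1 and ZPS1. IZH4 stood at 141, 120.4 and 137 CPM in dig1, at 141, 127 and 136 CPM in ste12, at 214, 184 and 207 CPM in spt8, and at 75.3, 84.3 and 90.7 CPM in rim101-531. It stood at 88.4, 127 and 100 CPM in ras2, at 152, 139 and 140.0 CPM in rtg3, and at 68.4, 53.3 and 67.3 CPM in WT. Each of the 18 mutant libraries lay above each of the 3 WT libraries for IZH4, and likewise for IZH2, as for 0.467% of all tested genes. For IZH2 the margin was narrow in dig1, at 287, 320 and 305 CPM against 282 CPM in WT replicate 1. That order was looked for after the values were seen, and all its comparisons share the same 3 WT libraries. It takes in dig1, ste12 and WT, which entered the choice of the genes, so nothing is read from it.

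IZH4 rose in spt8 (log2 fold change 1.68 ± 0.13, edgeR adjusted p = 2.56e-08), rtg3 (1.19 ± 0.13, adjusted p = 1.64e-06) and ras2 (0.74 ± 0.13, adjusted p = 0.000361). It did not pass in rim101-531 (0.41 ± 0.13, adjusted p = 0.106). IZH2 stood at 523, 612 and 546 CPM in spt8, at 288, 436 and 364 CPM in rim101-531, at 331, 434 and 387 CPM in ras2, at 436, 388 and 440.3 CPM in rtg3, and at 282, 207 and 237 CPM in WT. IZH2 rose in spt8 (log2 fold change 1.21 ± 0.14, adjusted p = 3.56e-06), rtg3 (0.80 ± 0.14, adjusted p = 0.000464) and ras2 (0.67 ± 0.14, adjusted p = 0.00193). It also rose in rim101-531 (0.59 ± 0.14, adjusted p = 0.0261), a call that was lost without rim101-531 replicate 2 (adjusted p = 0.175) or 3 (adjusted p = 0.0821) and without WT replicate 2 (adjusted p = 0.154) or 3 (adjusted p = 0.106). IZH2 stood at 304 ± 16.6 CPM in dig1 and 574 ± 37.4 CPM in ste12, with WT at 242 ± 37.7 CPM (SD, n = 3 each). For IZH4, dig1 and ste12 overlapped, at 133 ± 11.1 CPM in dig1 and 135 ± 7.18 CPM in ste12. The log2 fold change of IZH4 in dig1 against WT was 1.08 ± 0.13, or 1.17 without dig1 replicate 2.

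IZH1 (YDR492W, chromosome IV, 1434924 to 1435874) did not share the pattern of IZH2 and IZH4. It stood at 236, 237 and 235 CPM in spt8, against 303, 443 and 336 CPM in WT, and fell there (log2 fold change -0.61 ± 0.20, edgeR adjusted p = 0.0279), where IZH2 and IZH4 rose. That call was lost without spt8 replicate 1 (adjusted p = 0.0626), 2 (adjusted p = 0.0616) or 3 (adjusted p = 0.0729) and without WT replicate 2 (-0.44, adjusted p = 0.153). In rtg3 it spread from 287 to 529 CPM and overlapped WT. The coding sequences of the 3 genes were identical at 51.1% to 56.3% of aligned positions, with no identical run over 10 bases, so reads of this family are told apart more readily than those of VEL1 and YOR387C.

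Counted over the 10 genes, 3 rose and 4 fell in spt8, where 25.5% of all tested genes were called, 11.1% higher and 14.4% lower. In ras2 2 rose and 2 fell, beside 25.3% of all tested genes, 10.3% higher and 14.9% lower. In rtg3 2 rose and 2 fell, beside 20.5%, 9.3% higher and 11.2% lower, and in rim101-531 1 rose and 0 fell, beside 3.08%, 1.28% higher and 1.8% lower. The genes called in ras2 and in rtg3 were ZRT1 and ZPS1, which fell, and IZH2 and IZH4, which rose. The spt8 count of 7 was 4 without spt8 replicate 1, without spt8 replicate 3 or without WT replicate 2. The median log2 fold change of the 10 was 0.28 in spt8, 0.12 in rim101-531, -0.14 in ras2 and -0.16 in rtg3, beside 0.02, -0.01, -0.01 and 0.00 over all tested genes. Past the same threshold lay 7 of the 10 in dig1 against WT, all higher (15.7% of all tested genes in either direction, 8.02% higher), 2 in ste12 against WT, both higher (9.97%, 4.77% higher), and 6 in dig1 against ste12, 5 of them higher (21.7%, 11.6% higher and 10.1% lower). Nothing is read from these last 3 counts, since those comparisons entered the choice of the genes.

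All 6 comparisons with WT share its 3 libraries, and WT replicates differed for some members. For ZRT1 WT ranged from 139 to 422 CPM, for ZPS1 from 79.9 to 84.2 CPM. ZRT1 was lowest in replicate 1 and highest in replicate 2 in WT, ste12 and rim101-531, and the reverse in dig1 and spt8. The spread of log2 CPM within groups, pooled over the 7 groups, was 0.61 for ZRT1, 0.63 for ZPS1 and 0.89 for VEL1, against a median of 0.20 over all tested genes, and it was 0.11 for ZRT3 and 0.15 for IZH4. ZRT1 and ZPS1 thus lay at the 98.9th and 99th percentile of tested genes for differences between replicates of a strain. With each group's mean removed, ZRT1 and ZPS1 had a Pearson r of 0.63 over the 21 libraries and 0.56 over the 18 without dig1, but -0.12 over the 15 without dig1 and rim101-531, so the relation rests on those strains. ZPS1 and VEL1 had an r of 0.73, 0.65 and 0.35 over the same sets, and ZPS1 and ZAP1 of 0.74, 0.65 and 0.25. ZRT1 and ZRT2 kept a positive r throughout (0.53, 0.76 and 0.60), while that of ZRT1 and VEL1 turned negative (0.31, 0.06 and -0.76). These are descriptions, and the points share library preparation and depth.

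Per kilobase of coding length, IZH1 was the most abundant of the 10 in WT, at 379 CPM per kb, followed by ZRT3 at 288, IZH2 at 254 and ZRT1 at 232 CPM per kb. ZRT2 stood at 154, ZPS1 at 109.5, IZH4 at 67.1 and ADH4 at 48.8 CPM per kb. VEL1 and ZAP1 were the lowest, at 8.91 and 7.85 CPM per kb. In dig1 ZPS1 reached 2949 ± 1413 CPM per kb and ZRT1 2072 ± 715 CPM per kb (SD, n = 3), the highest of the 10 there.

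A further 24 genes of zinc transport and of the Zap1 response were taken from general knowledge, and all 24 passed the filter. They were not picked for how they moved, but earlier results of these libraries were known by then. In spt8 3 rose and 6 fell, beside 25.5% of all tested genes called in either direction. In ras2 4 rose and 5 fell (25.3% of all tested genes), in rtg3 4 rose and 5 fell (20.5%), and in rim101-531 0 rose and 1 fell (3.08%). The rtg3 count of 9 was 3 and 4 without rtg3 replicates 1 and 3 and 5 without any of the WT replicates. In dig1 6 were higher and 3 lower than WT past the threshold (15.7%), and in ste12 2 were higher and 0 lower (9.97%), with nothing read from these 2 counts. Their median log2 fold change was 0.20 in dig1, -0.04 in ste12, -0.07 in spt8, -0.06 in rim101-531, 0.16 in ras2 and 0.07 in rtg3. Over all tested genes it was -0.01 in dig1, -0.03 in ste12, 0.02 in spt8, -0.01 in rim101-531, -0.01 in ras2 and 0.00 in rtg3. The difference among spt8, rim101-531, ras2 and rtg3 passed for 15 of the 24, beside 49.7% of all tested genes.

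Among these, FET4, a low-affinity transporter of iron, zinc and copper, fell with ZRT1 in ras2 (66.2 ± 7.96 against 107 ± 23.0 CPM in WT, log2 fold change -0.69 ± 0.14, edgeR adjusted p = 0.00177) and rtg3 (62.4 ± 3.84 CPM, -0.77 ± 0.14, adjusted p = 0.000779). In spt8, where ZRT1 fell, FET4 rose (148 ± 24.7 CPM, log2 fold change 0.47 ± 0.14, adjusted p = 0.0190), with libraries that overlapped WT and a call lost without spt8 replicate 2 or WT replicate 2. ZRC1, the vacuolar zinc importer, rose in ras2 (502 ± 9.44 against 390.1 ± 11.99 CPM in WT, 0.37 ± 0.09, adjusted p = 0.00436) and in rtg3 (0.29 ± 0.09, adjusted p = 0.0241), the rtg3 call being lost without rtg3 replicate 1 or 2 or WT replicate 2 or 3. IZH3, the fourth gene of the IZH family, went the other way from IZH2 and IZH4, with a fall in ras2 (174 ± 6.71 against 422 ± 11.1 CPM in WT, -1.28 ± 0.12, adjusted p = 6.18e-07) and in spt8 (-0.85 ± 0.12, adjusted p = 4.29e-05).

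URA10, an isozyme of uracil synthesis, fell in spt8 (40.5 ± 5.94 against 167 ± 11.2 CPM in WT, log2 fold change -2.04 ± 0.15, edgeR adjusted p = 9.54e-09), ras2 (-1.01 ± 0.14, adjusted p = 2.95e-05) and rim101-531 (-0.86 ± 0.14, adjusted p = 0.00133), and in dig1 it stood at 69.6 ± 18.2 CPM. CTT1, the cytosolic catalase, fell in spt8 (-2.67 ± 0.39, adjusted p = 4.91e-05) and rose in ras2 (1.03 ± 0.36, adjusted p = 0.0411). The ras2 call of CTT1 was lost without ras2 replicate 1 or 3 or WT replicate 2 or 3. ADH1 and ADH3 encode alcohol dehydrogenases that use zinc and are lowered by Zap1 in low zinc. ADH3 fell in the 3 strains in which ZRT1 and ZPS1 fell, spt8 (-0.62 ± 0.09, adjusted p = 6.95e-05), ras2 (-0.46 ± 0.09, adjusted p = 0.00152) and rtg3 (-0.86 ± 0.09, adjusted p = 1.71e-06). ADH1 fell in spt8 (-1.44 ± 0.20, adjusted p = 2.43e-05) and in rtg3 (-0.56 ± 0.20, adjusted p = 0.0497), the rtg3 call being lost when any 1 of the 6 libraries was left out, and did not pass in ras2 (0.41 ± 0.20, adjusted p = 0.138). In dig1, where ZRT1 and ADH4 were highest, ADH1 stood at 5221 ± 549 CPM against 5297 ± 566 CPM in WT. The others past the threshold in some comparison with WT were COT1, YKE4, PIS1, EKI1, CKI1, HNT1, ZRG8, ICY2, RTC4, YOR387C and RAD27. Of these, ICY2, RTC4 and YOR387C passed only in dig1, from which nothing is read. Leaving out a single library could lose the calls of COT1 in spt8 and ras2 and of RAD27 in ras2. The same held for YKE4, EKI1, CKI1, HNT1 and ZRG8 in rtg3. RTC4, which has an exact element in its promoter window, stood at 29.4 ± 9.28 CPM in dig1 and 13.03 ± 2.27 CPM in WT (SD, n = 3 each). ZRG17, another gene with an exact element, had a log2 fold change of 0.29 ± 0.13 in dig1. The genes with an exact element outside both lists were PAN1, TEX1, MCD4, SDH8, PCD1 and MRX15. TEX1 lies beside RTC4 and MRX15 beside ZRG17, and each window holds the same site as that of its neighbour. In dig1 against WT, PAN1, TEX1 and MCD4 had log2 fold changes of 0.71, 0.25 and 0.16. SDH8, PCD1 and MRX15 had -0.23, -0.19 and -0.50. Nothing is read from these dig1 values.

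The genes whose levels ran most like ZRT1 over the 21 libraries were sought among 4916 genes of at least 10 CPM on average. They were RGI2, a gene of respiratory growth (Pearson r = 0.92), SUC2, the invertase (0.90), FAA1, an acyl-CoA synthetase (0.90), SYG1, a plasma membrane protein (0.89), and GSC2, a glucan synthase subunit (0.86). Without the dig1 libraries these values were 0.86, 0.82, 0.81, 0.82 and 0.72 over 18 libraries. SUC2 stood at 2999 ± 631 CPM in dig1, 107 ± 2.50 CPM in ras2, 81.6 ± 4.10 CPM in rtg3 and 1001 ± 442 CPM in WT. For ZPS1 they were SEC11, a signal peptidase subunit (0.94), SIM1, a protein of the SUN family (0.92), COQ2, an enzyme of ubiquinone synthesis (0.91), PGU1, a pectin-cleaving enzyme (0.89), and AAC1, a mitochondrial carrier (0.88). Without dig1 they were 0.72, 0.61, 0.78, 0.55 and 0.38. The points share library preparation, depth and strain, and these are the highest values out of the 4916.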

How the data were processed

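bcl2fastq, TopHat2 2.0.19, HTSeq 0.6.1 and build R64 are named per the submitters' processing notes, without their roles, and the sources used here do not state the strand setting, filters or annotation version. The deposited values are whole-number counts of reads per gene. Records that HTSeq gave to no gene (40.1% to 47.8% of alignment records) were left out. Of 7126 features 6048 matched RefSeq R64 locus tags. In edgeR 4.0.16 (R 4.3.3), 5786 genes passed filterByExpr, TMM factors lay between 0.893 and 1.16, and a quasi-likelihood fit took in all 21 libraries with 1 coefficient for each strain and Benjamini-Hochberg adjustment over all tested genes and a threshold of 0.05. Standard errors are the log2 fold change over the square root of F. Correlations used log2 CPM with a prior count of 2. The pipeline was tested on simulated data. The members and lists were chosen with earlier results of these data known. The text names all 10 members, the listed zinc genes past the threshold in a comparison with WT, and the 5 genes most like ZRT1 and ZPS1 by Pearson r. Alternatives were DESeq2 1.42.0, its size factors, no filter, a replicate block, fewer libraries and each library left out.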

Additional observations from a re-analysis of the deposited data

How the results depend on the processing

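Of 940 values of the 10 genes under alternatives, 899 kept their direction and side of the threshold, 29 lost and 12 gained a call, and none changed direction while called. Counts of the 10 genes that pass, and of the other 24, moved by over 1.5 times as follows. With only the compared groups in the fit, 4 in place of 7 passed in dig1 against WT, 0 in place of 1 in rim101-531 against WT, 2 in place of 1 in rtg3 against ras2 and 8 in place of 4 in rtg3 against spt8; of the other 24, 5 in place of 13 passed in dig1 against ste12. In rtg3 against ras2 the count was 2 with DESeq2 and 2 with its size factors. Of the other 24, 1 in place of 2 passed in ste12 against WT with no filter on low counts, and 2 in place of 1 in rim101-531 against WT with DESeq2 and 2 with the replicate block. Leaving out single libraries, the counts of the 10 genes ranged from 4 to 6 in spt8 against WT, 0 to 1 in rim101-531 against WT and 0 to 1 in rtg3 against ras2. Those of the other 24 ranged from 1 to 2 in ste12 against WT, 1 to 2 in rim101-531 against WT, 3 to 6 in rtg3 against WT and 8 to 13 in dig1 against ste12. The cause was not tested, apart from the fewer samples. Same-numbered libraries deviated together with a correlation over 0.1 in at most 2 of 3 pairs of any comparison. These were replicates 1 and 2 in every comparison without rtg3 (0.53 and 0.54 in dig1 against ste12), while replicate 3 stayed under 0.1. With rtg3 the values for replicates 1 and 2 were negative (-0.30 and -0.35 in rtg3 against rim101-531). Replicate number may thus mark a difference shared by several strains, which the main fit did not model and whose source was not tested. The replicate block gave 7 in dig1, 3 in ste12, 7 in spt8, 1 in rim101-531, 4 in ras2 and 4 in rtg3 against WT. Depth limits VEL1 and YOR387C outside dig1 most.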
